A study of Mus musculus with 9 samples.

Results

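The BCL2 family decides whether a cell opens the outer membrane of its mitochondria. The 10 members followed here were selected by gene symbol, and all 10 were found among the 16509 genes of the deposited expression table. All 10 also passed the filter on low counts and were among the 11949 genes tested. They comprise 3 anti-apoptotic members (Bcl2, Bcl2l1 and Mcl1), 2 effectors (Bax and Bak1) and 5 BH3-only members (Bid, Bad, Bcl2l11, Bbc3 and Pmaip1). The RNA came from MC38, a mouse colon carcinoma cell line, in 3 groups of 3 libraries each. Ctrl was labelled DMSO, whereas the study's text gives PBS for this group. Cu-Cys was the copper-cystine complex, and Cadict was a nanodrug that joins copper and cystine with glucose oxidase (GOx) and the EGFR-binding peptide GE11. The dose and exposure time behind these libraries are not given in the sources used here. The comparisons asked how copper-cystine alone and the full nanodrug changed the tumour cell transcriptome.

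Anti-apoptotic members hold the pore formers and the BH3-only proteins in check at the mitochondrial membrane. BAX and BAK, the effectors, assemble into pores that release cytochrome c, which starts the caspase cascade. BH3-only proteins are the sensors of the family. They respond to growth factor loss, DNA damage, proteasome or endoplasmic reticulum stress, and death receptor signals, and they act by occupying the anti-apoptotic proteins or by activating the effectors. Much of this control lies in protein binding, phosphorylation, cleavage and turnover, so a transcript level describes only the supply of each member.

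Library totals ran from 17905771 to 18293056 expected counts, where an expected count is the estimated number of reads that RSEM assigns to a gene. Counts were scaled with TMM, which aligns libraries on the bulk of their genes, and are given as CPM of the scaled library. TMM factors were 1.26 to 1.27 in Ctrl, 1.21 in Cu-Cys and 0.64 to 0.665 in Cadict. Scaling by library totals instead moved the median log2 fold change of all genes in Cadict against Ctrl by -0.95, so directions are also given with that scaling where they turned. Cadict replicate 2 differed most from the other libraries of its group, with a chi-square per degree of freedom of 14.7 and 23.1 against them, beside 3.63 for the remaining pair and 1.88 to 2.06 within Ctrl. Nothing in the labels says that replicates were separate cultures, so the p-values measure the spread between these libraries, which may be technical. In bulk RNA, fewer cells of a kind and less RNA per cell cannot be told apart. Of the 6 epithelial markers, Epcam and Cldn7 were at 0 counts in every Ctrl library. In Ctrl, Krt18 had 0 to 1 counts, Krt8 1 to 4, Krt19 19 to 33 and Cdh1 99 to 120. The summed level of the list was 5.28 to 6.79 CPM in Ctrl, 3.83 to 4.38 in Cu-Cys and 23.7 to 25.8 in Cadict. It was mostly Cdh1 and Krt19, at 12.8 and 10.8 CPM in Cadict. The intestinal markers Cdx1 and Vil1 summed to at most 0.588 CPM in any library, so defining intestinal transcripts were at or near 0. Among 7 markers of leukocytes, endothelium and fibroblasts, 4 reached 10 counts in every library, and the summed level of 576 to 606 CPM in Ctrl, 318 to 330 in Cu-Cys and 127 to 140 in Cadict was mostly Col1a2, a collagen gene. These markers moved with the groups, and their part in the changes of the BCL2 family was not tested.

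With Cadict, Pmaip1 and Bax rose strongly, and Bcl2, Bbc3, Bak1 and Bid fell to less than 50% of their control level. Those 6 of 10 members were called, meaning a change of at least 2-fold with an adjusted p of at most 0.001 (edgeR quasi-likelihood test, Benjamini-Hochberg over all genes tested). The background was high, since 47.8% of all genes tested were called in this comparison, 20.7% higher and 27.1% lower. With the adjusted p limit set at 0.05, the level at which "rose" and "fell" are used here, 3 members were higher, 6 lower and 1 did not pass, against 87.7% of all genes passing, 40.6% higher and 47.1% lower. The libraries of the groups did not overlap in TMM-scaled CPM for 9 of the 10 members, beside 87.5% of all genes, so both of these shares of the family were near the background. The median log2 fold change was -0.60 over the 10 members and -0.13 over all genes tested. By library totals 2 members were higher and 8 lower at the 0.05 limit. That split was not counted over all genes, whose median log2 fold change was then -1.08. At the limits for a call, 2 members were higher and 7 lower by library totals. The calls over all genes then split into 828 higher and 6148 lower, against 2472 and 3235 with TMM. With DESeq2 size factors 4 members were called, because Bak1 (-0.97) and Bid (-0.92) then fell short of a 2-fold change. Over all 11949 genes, 2746 were then called higher and 2940 lower. Replicate 2 of Cadict also mattered for Bid, whose log2 fold change was -0.99 without it, leaving 5 members called. Calls over all genes without that library were 2416 higher and 3206 lower of 12079.

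**Figure D1:**
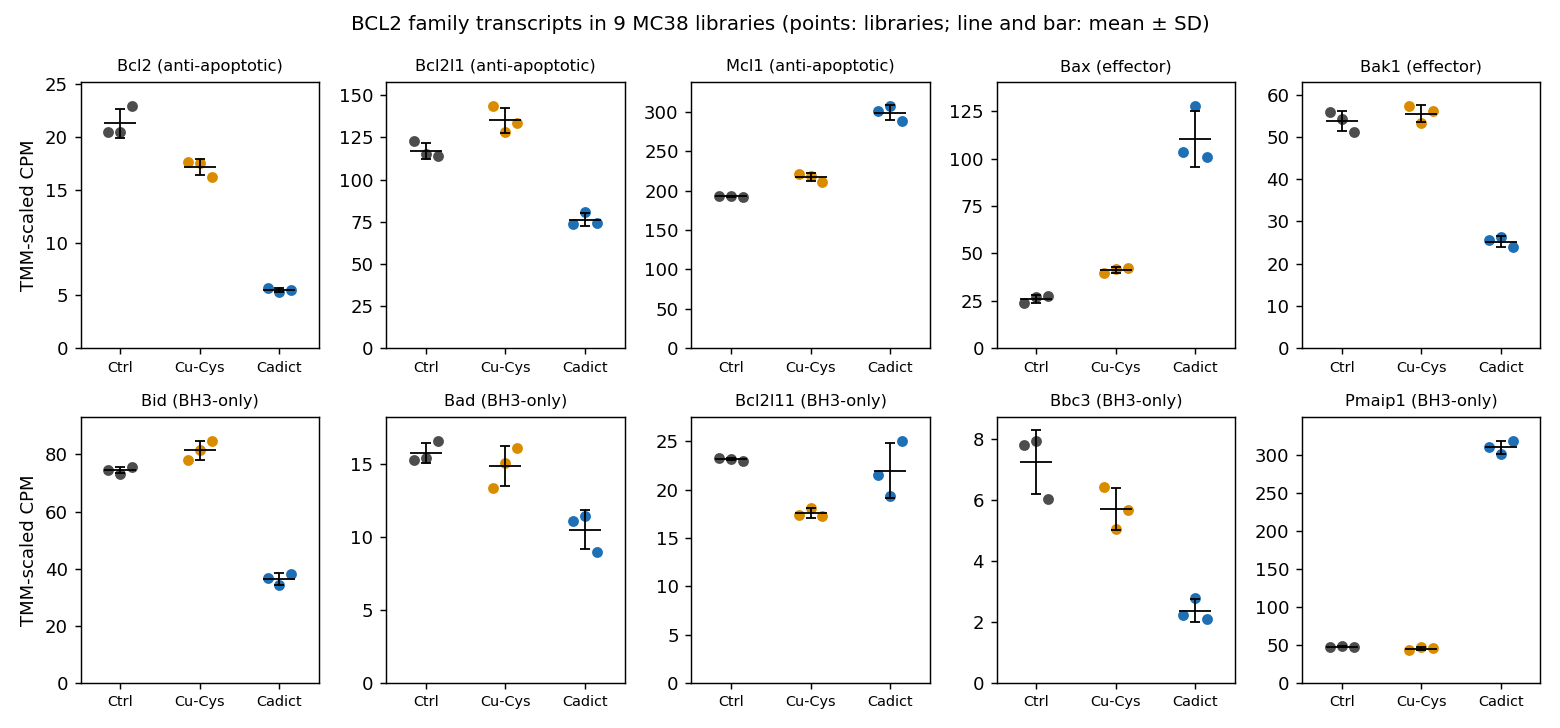
Level of each BCL2 family member in 9 MC38 libraries, as TMM-scaled CPM on a linear axis from 0. Points are libraries, and the line and bar are the mean and SD of 3. Bax stands at 26.0, 41.2 and 110.6 CPM on average in Ctrl, Cu-Cys and Cadict, whereas Pmaip1 is near 47.4 and 45.0 CPM in Ctrl and Cu-Cys and 309.9 CPM in Cadict.

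With Cu-Cys alone the family moved little. No member was called by edgeR, by DESeq2's Wald test or by limma on FPKM. With edgeR 1.64% of all genes tested were called (0.167% higher and 1.47% lower). An unadjusted p of at most 0.05 was found for 7 of the 10. That share was not counted over all genes, so nothing about the family was read from it. With the adjusted p limit of 0.05 alone, 3 members rose (Bax, Bcl2l1 and Mcl1) and 3 fell (Bcl2, Bcl2l11 and Bbc3). At that limit 45% of all genes passed, 22.6% higher and 22.4% lower. Library values did not overlap for 7 of the 10 members, beside 61.2% of all genes. The median log2 fold change of the members was -0.01, close to the 0.01 over all genes. Between the drugs, Cadict against Cu-Cys called the same number of members as Cadict against Ctrl, 6, 2 higher and 4 lower, with 42.2% of all genes called (18.6% higher and 23.6% lower). There 4 members rose and 6 fell, beside 85.9% of all genes passing (40.3% higher and 45.6% lower). No member overlapped between these groups, as for 85% of all genes. Comparisons that share a group of libraries are not independent of each other.

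**Figure D2:**
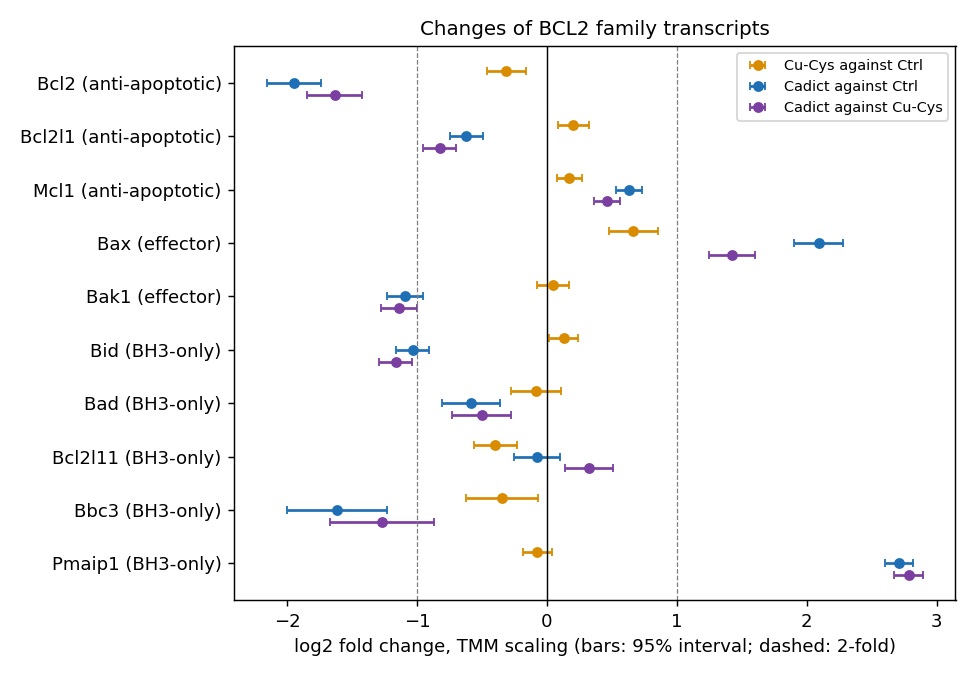
Log2 fold change of each member in 3 comparisons with TMM scaling. Points are estimates, bars are 95% intervals and dashed lines mark a 2-fold change. Cadict moves Pmaip1 by 2.71 and Bcl2 by -1.95 against Ctrl, while every Cu-Cys estimate lies between -0.40 and 0.67.

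RefSeq promoter windows, from 250 bases before to 50 after a start on GRCm38.p6, covered 9 members, all but Pmaip1, with 15 windows among 32851 in all. Shown here are the windows of Bcl2, which fell most among the anti-apoptotic genes, Mcl1, the anti-apoptotic gene that rose with TMM scaling, and Bax, the effector that rose. Capitals mark matches to a motif and lower case the rest. Bcl2 lies at chr1:106714241-106714540 on the minus strand, Mcl1 at chr3:95658471-95658770 on the plus strand and Bax at chr7:45466849-45467148 on the minus strand.
Bcl2: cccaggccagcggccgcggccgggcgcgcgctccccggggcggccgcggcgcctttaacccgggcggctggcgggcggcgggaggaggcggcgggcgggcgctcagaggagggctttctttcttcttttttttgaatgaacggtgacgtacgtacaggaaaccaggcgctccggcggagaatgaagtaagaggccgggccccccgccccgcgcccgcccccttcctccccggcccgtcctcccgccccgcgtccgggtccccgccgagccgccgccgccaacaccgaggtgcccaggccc
Mcl1: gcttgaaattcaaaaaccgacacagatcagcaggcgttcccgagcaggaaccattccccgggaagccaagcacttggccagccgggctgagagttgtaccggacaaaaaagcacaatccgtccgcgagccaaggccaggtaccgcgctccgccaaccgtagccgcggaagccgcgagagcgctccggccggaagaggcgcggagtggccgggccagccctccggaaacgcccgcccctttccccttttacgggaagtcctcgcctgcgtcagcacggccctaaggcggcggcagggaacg
Bax: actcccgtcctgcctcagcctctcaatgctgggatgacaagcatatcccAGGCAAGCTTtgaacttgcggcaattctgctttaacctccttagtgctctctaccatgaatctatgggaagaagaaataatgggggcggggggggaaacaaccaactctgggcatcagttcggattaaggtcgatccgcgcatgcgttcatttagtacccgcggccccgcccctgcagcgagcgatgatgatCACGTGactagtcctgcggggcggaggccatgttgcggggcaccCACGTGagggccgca
Motifs were searched on both strands. In the Bax window the E-box CACGTG occurred at bases -9 to -4 and 36 to 41 from the start. A decamer that matches a p53 half-site, not a full site, lay at -201 to -192. Of all windows, 7.15% held the E-box and 8.36% the p53 half-site. The windows of Bcl2 and Mcl1 held none of the 8 motifs searched. The cyclic AMP element TGACGTCA (1.79% of all windows), the ATF4-C/EBP composite TGATGNAAN (3.95%) and the heat shock element (0.603%) were found in no member window. The antioxidant element TGACNNNGC (12.4% of all windows) occurred in a Bcl2l1 window, and the metal response element TGCACNC (12.6%) in windows of Bcl2l11 and Bad. The FOXO motif GTAAACA (3.65%) occurred in windows of Bcl2l11 and Bbc3, and the E-box also in one of Bbc3. No motif of this search overlapped another in the Bax window. GC content of the 3 printed windows was 76.0% for Bcl2, 65.7% for Mcl1 and 57.3% for Bax, beside a median of 52.7% over all windows.

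Among the anti-apoptotic genes, Bcl2 fell, Bcl2l1 fell less, and Mcl1 depended on the scaling. Bcl2, which guards mitochondrial and endoplasmic reticulum membranes, had 474, 473 and 525 expected counts in Ctrl, 382, 384 and 356 in Cu-Cys, and 67, 61 and 66 in Cadict. All Cadict libraries were far below the rest, and the Cu-Cys libraries lay below all Ctrl libraries. On the TMM-scaled CPM scale the levels were 21.3 ± 1.39, 17.1 ± 0.783 and 5.52 ± 0.190 (SD, n = 3 each). Cadict lowered it by a log2 fold change of -1.95 ± 0.10 (SE), with an adjusted p of 2.3e-11 by edgeR. With Cu-Cys it was -0.31 ± 0.07, with an adjusted p of 0.0026. Bcl2 was also lower in Cadict than in Cu-Cys (log2 fold change -1.63 ± 0.10, edgeR adjusted p 3.4e-10).

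Bcl2l1 encodes BCL-xL, the guardian that keeps both effectors inactive. Its expected counts were 2837, 2656 and 2615 in Ctrl, 3107, 2809 and 2925 in Cu-Cys, and 866, 928 and 885 in Cadict. As TMM-scaled CPM these were 117.2 ± 4.76, 135.1 ± 7.59 and 76.3 ± 4.02 (SD, n = 3 each). The groups did not overlap on that scale, Cu-Cys being highest and Cadict lowest. Bcl2l1 rose with Cu-Cys (log2 fold change 0.20 ± 0.06, edgeR adjusted p 0.0085) and fell with Cadict (-0.62 ± 0.06, edgeR adjusted p 7.3e-08). The rise with Cu-Cys was 0.15 without Cu-Cys replicate 1 (edgeR adjusted p 0.059) and 0.13 by library totals (edgeR adjusted p 0.064), and the adjusted p ran from 3e-04 to 0.49 over 19 alternatives.

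Mcl1 encodes a short-lived guardian whose protein is degraded within a brief time after synthesis stops. It had 4472, 4465 and 4391 expected counts in Ctrl, 4795, 4778 and 4637 in Cu-Cys, and 3548, 3523 and 3433 in Cadict. Its TMM-scaled CPM was 192.7 ± 1.07, 217.1 ± 5.05 and 298.9 ± 9.61 (SD, n = 3 each). Cadict was thus the lowest group in raw counts and the highest after scaling, while Cu-Cys lay above Ctrl on both. Mcl1 rose by a log2 fold change of 0.63 ± 0.05 in Cadict against Ctrl with TMM (edgeR adjusted p 2.4e-09), but by library totals the value was -0.32, and on deposited TPM it was -0.66. What did not depend on the scaling was its standing against Bcl2l1 within a library. The ratio of Mcl1 to Bcl2l1 expected counts was 1.58, 1.68 and 1.68 in Ctrl, 1.54, 1.70 and 1.59 in Cu-Cys, and 4.10, 3.80 and 3.88 in Cadict, a mean 2.38 times that of Ctrl. Cu-Cys moved Mcl1 by a log2 fold change of 0.17 ± 0.05 (edgeR adjusted p 0.0069) with TMM, and 0.10 by library totals, where it did not pass.

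The effectors moved apart. Bax, which waits in the cytosol and inserts into mitochondria on activation, had 549, 618 and 629 expected counts in Ctrl, 855, 915 and 929 in Cu-Cys, and 1218, 1464 and 1201 in Cadict. The groups formed separate steps even before scaling, and Cadict replicate 2 was the highest library. Its TMM-scaled CPM was 26.0 ± 1.96, 41.2 ± 1.56 and 110.6 ± 14.8 (SD, n = 3 each). Bax rose with Cu-Cys by a log2 fold change of 0.67 ± 0.09 (edgeR adjusted p 3.1e-05) and with Cadict by 2.09 ± 0.09 (edgeR adjusted p 2.5e-12), and was higher in Cadict than in Cu-Cys by 1.42 ± 0.08 (edgeR adjusted p 2e-10). Its rise with Cu-Cys was the strongest change of any member in that comparison and exceeded the absolute change of 91.4% of all genes tested. By library totals Bax still rose with Cadict, by 1.14, and leaving out single libraries gave 1.98 to 2.15 with TMM. In the reference annotation, 8.51% of the 50-base stretches of Bax transcripts also occur in Gm45808, a gene that overlaps Bax on the same strand. Reads there cannot be divided between them with certainty, and Gm45808 was not among the genes of the deposited data.

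Bak1 encodes the effector that resides in the outer membrane at all times. Its expected counts were 1290, 1256 and 1173 in Ctrl, 1240, 1165 and 1231 in Cu-Cys, and 300, 302 and 285 in Cadict. The Ctrl and Cu-Cys libraries overlapped, and the Cadict libraries lay well below both. Bak1 fell with Cadict by 1.09 on the log2 scale (log2 fold change -1.09 ± 0.07, edgeR adjusted p 2e-10). Cu-Cys left it at a log2 fold change of 0.05, with a 95% interval of -0.07 to 0.17. Consequently the ratio of Bax to Bak1 expected counts was 0.426, 0.492 and 0.536 in Ctrl, 0.69, 0.785 and 0.755 in Cu-Cys, and 4.06, 4.85 and 4.21 in Cadict. Cadict raised the mean ratio 9.03 times over Ctrl and Cu-Cys raised it 1.53 times.

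Pmaip1 changed most among the BH3-only genes. It encodes NOXA, which binds MCL1 and promotes its degradation. The expected counts were 1081, 1107 and 1087 in Ctrl, 934, 1019 and 995 in Cu-Cys, and 3650, 3459 and 3786 in Cadict. Every Cadict library was above every other library by a wide margin, whereas Cu-Cys lay just under Ctrl. As TMM-scaled CPM the levels were 47.4 ± 0.581, 45.0 ± 1.78 and 309.9 ± 8.21 (SD, n = 3 each). Cadict raised it by a log2 fold change of 2.71 ± 0.05 over Ctrl (edgeR adjusted p 4.5e-16), a 6.54-fold rise that exceeded the absolute change of 91.4% of all genes. It was 1.76 by library totals. For Cu-Cys against Ctrl the value was -0.07, with a 95% interval of -0.18 to 0.04 (edgeR adjusted p 0.27). Set against its main partner, the Pmaip1 to Mcl1 ratio of expected counts was 0.242, 0.248 and 0.248 in Ctrl, 0.195, 0.213 and 0.215 in Cu-Cys, and 1.03, 0.982 and 1.10 in Cadict. The Cadict mean was 4.22 times that of Ctrl.

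Bbc3, the gene of the p53-inducible sensor PUMA, went the other way. Its expected counts were low throughout, at 180, 183 and 138 in Ctrl, 139, 110 and 124 in Cu-Cys, and 26, 32 and 25 in Cadict. Cadict libraries were lowest without overlap, while Ctrl replicate 3 lay just below the highest Cu-Cys library. Bbc3 fell with Cadict by a log2 fold change of -1.61 ± 0.18 (edgeR adjusted p 4.3e-07). Its fall with Cu-Cys, -0.35 ± 0.13 (edgeR adjusted p 0.04), did not pass without Ctrl replicate 1 (-0.29), without Ctrl replicate 2 (-0.28), without Cu-Cys replicate 2 (-0.26) or without Cu-Cys replicate 3 (-0.34), and adjusted p ran from 0.012 to 0.16 over 19 alternatives. The fall with Cadict passed in every alternative run.

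Bid encodes the sensor that caspase-8 cleaves to carry death receptor signals to mitochondria. It had 1724, 1693 and 1735 expected counts in Ctrl, 1691, 1786 and 1855 in Cu-Cys, and 432, 393 and 454 in Cadict. The Cadict libraries were far below the others. Bid fell with Cadict, with a log2 fold change of -1.03 ± 0.06 (edgeR adjusted p 1.2e-10). For Cu-Cys against Ctrl the value was 0.13 ± 0.05, with an edgeR adjusted p of 0.061 in a range of 0.014 to 0.9 over 19 alternatives. Bak1 and Bid kept a similar ratio of expected counts in all groups, with means of 0.722 ± 0.040 in Ctrl, 0.683 ± 0.044 in Cu-Cys and 0.697 ± 0.070 in Cadict (SD, n = 3 each).

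Bad, which growth factor kinases hold inactive by phosphorylation, had 353, 357.3 and 380 expected counts in Ctrl, 290.25, 330 and 354 in Cu-Cys, and 131.44, 131 and 107 in Cadict. Ctrl and Cu-Cys overlapped. Bad fell with Cadict by a smaller margin than Bid or Bak1 (log2 fold change -0.59 ± 0.11, edgeR adjusted p 8.2e-05), and for Cu-Cys against Ctrl the value was -0.08, with a 95% interval of -0.27 to 0.11. That fall was not compared by test with those of Bid and Bak1. Bcl2l11 encodes BIM, a sensor bound by all guardians. Its expected counts were 538, 535.99 and 528 in Ctrl, 376, 397 and 378 in Cu-Cys, and 253, 222 and 298 in Cadict. After TMM scaling the Cadict libraries (21.5, 19.4 and 25.0 CPM) spread around the Ctrl level (23.0 to 23.3 CPM), and the Cu-Cys libraries (17.2 to 18.2 CPM) lay below both. Bcl2l11 fell with Cu-Cys (log2 fold change -0.40 ± 0.08, edgeR adjusted p 0.00084). In Cadict against Ctrl the value was -0.08, with a 95% interval of -0.25 to 0.10 (edgeR adjusted p 0.39). It was -0.18 without Cadict replicate 3, 0.01 without Cadict replicate 2, 0.04 with DESeq2 size factors and -1.03 by library totals, with adjusted p from 9.8e-09 to 0.95 over 19 alternatives. Against Cu-Cys, Bcl2l11 was 0.32 ± 0.09 higher on the log2 scale in Cadict (edgeR adjusted p 0.0026), a difference that was -0.56 by library totals.

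**Figure D3:**
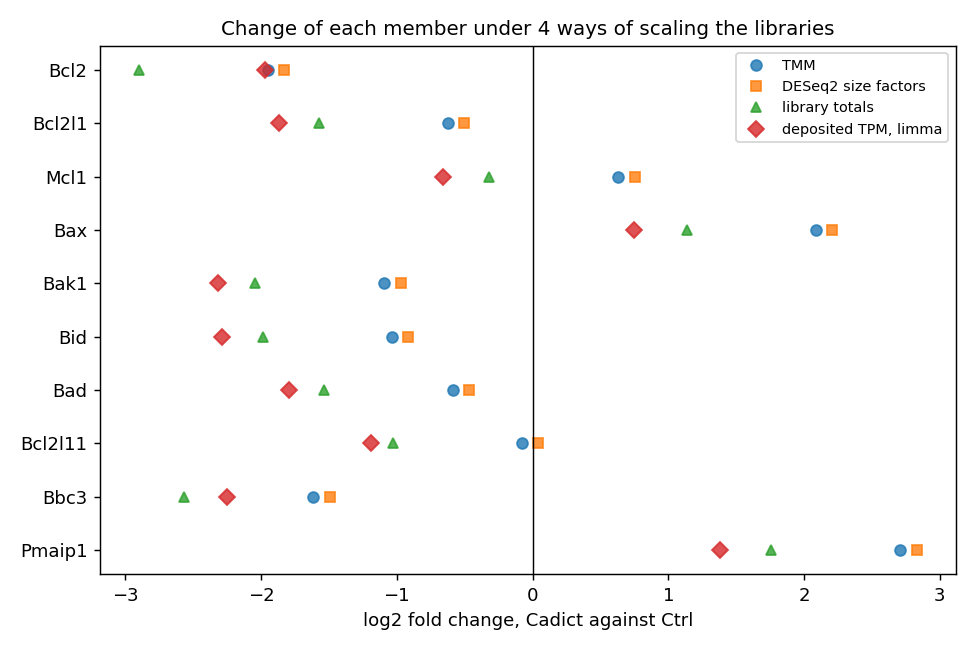
Log2 fold change of each member in Cadict against Ctrl under 4 ways of scaling. Pmaip1 and Bax stay above 0 and Bcl2, Bcl2l1, Bak1, Bid, Bad and Bbc3 stay below 0 in all 4, while Mcl1 runs from 0.75 with DESeq2 size factors to -0.66 on deposited TPM and Bcl2l11 from 0.04 to -1.19.

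Some members share exons with neighbours, and the sources used here do not state whether strand was used in counting. On the opposite strand, Bid overlaps Bcl2l13, Bak1 overlaps Ggnbp1 and Bad overlaps Gpr137. Bcl2 overlaps the antisense gene D630008O14Rik, which was not among the genes of the deposited data. Ggnbp1 was low, at 1.34 CPM in Ctrl and 1.39 in Cadict. Bcl2l13, itself a distant family member, had 71.4 CPM in Ctrl and 53.1 in Cadict, and Gpr137 9.31 and 3.27. Their part in the values of Bid, Bak1 and Bad was not tested.

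The order of the members by level was taken from deposited FPKM, which is per length, whereas a ratio of expected counts also carries the lengths of both genes and was compared only between groups. In Ctrl the order was Mcl1 (76.7 ± 0.590 FPKM), Bcl2l1 (66.7 ± 2.99), Bax (61.3 ± 4.79), Bid (60.4 ± 1.16), Bak1 (40.8 ± 1.85), Bad (29.8 ± 1.37), Pmaip1 (25.8 ± 0.210), Bcl2l11 (6.56 ± 0.107), Bbc3 (6.25 ± 0.777) and Bcl2 (3.98 ± 0.236), each as mean and SD of 3 libraries. The ranges of Bcl2l1 and Bax, of Bax and Bid, and of Bcl2l11 and Bbc3 overlapped, so those neighbours were not separated. Mcl1 and Bcl2l1 together thus made up most of the summed FPKM of these 3 anti-apoptotic genes in Ctrl, and Bcl2 very little. In Cu-Cys, Bax led at 92.0 ± 1.98 FPKM, ahead of Mcl1 (82.2 ± 2.06) and Bcl2l1 (73.5 ± 4.16), with the rest in the order of Ctrl. There the ranges of Bad and Pmaip1 and of Bcl2l11 and Bbc3 overlapped. In Cadict the order was Bax (131.4 ± 15.2), Pmaip1 (86.8 ± 3.94), Mcl1 (61.3 ± 1.12), Bcl2l1 (22.6 ± 0.822), Bid (15.1 ± 1.14), Bad (10.5 ± 1.20), Bak1 (9.80 ± 0.316), Bcl2l11 (3.25 ± 0.420), Bbc3 (1.08 ± 0.136) and Bcl2 (0.730 ± 0.219 FPKM). Only Bad and Bak1 overlapped among neighbours in that group. Pmaip1 passed from the seventh to the second place, and Bcl2 was the lowest member in every group.

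**Figure D4:**
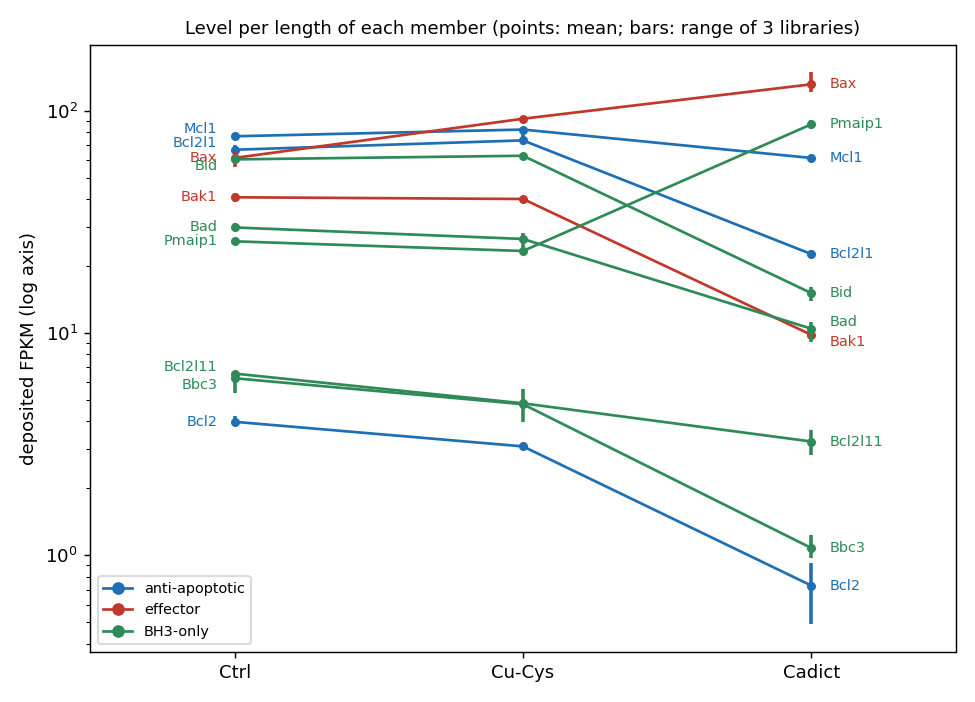
Deposited FPKM of each member on a log axis in Ctrl, Cu-Cys and Cadict, coloured by role. Points are means and bars the range of 3 libraries. Bax (131.4 FPKM) and Pmaip1 (86.8 FPKM) lead in Cadict, where Bcl2l1, Bid, Bak1 and Bad lie between 9.80 and 22.6 FPKM. FPKM carries no correction for composition, so distances between groups differ from the TMM changes.

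Taking each role together within a library removes the scaling. The summed FPKM of effectors over that of anti-apoptotic members was 0.651, 0.712 and 0.716 in Ctrl, 0.794, 0.846 and 0.856 in Cu-Cys, and 1.58, 1.86 and 1.57 in Cadict. The groups did not overlap, and this ratio was above 1 only in Cadict. Of the effectors only Bax gained there, since Bak1 held 10.8 ± 0.519% of the members' summed FPKM in Ctrl and 2.86 ± 0.078% in Cadict. The effector ratio was not computed without Bax. BH3-only over anti-apoptotic FPKM was 0.875 ± 0.025 in Ctrl, 0.770 ± 0.054 in Cu-Cys and 1.38 ± 0.072 in Cadict. Without Pmaip1 the same ratio was 0.699 ± 0.020, 0.623 ± 0.045 and 0.353 ± 0.012, so this ratio was above that of Ctrl in Cadict only with Pmaip1 included. Of the summed FPKM of the 10 members, Bax held 16.2 ± 1.24% in Ctrl, 22.3 ± 0.532% in Cu-Cys and 38.3 ± 3.05% in Cadict. Pmaip1 held 6.83 ± 0.068%, 5.66 ± 0.226% and 25.4 ± 2.0%. Bcl2l1, in contrast, held 17.6 ± 0.805%, 17.8 ± 0.968% and 6.61 ± 0.067%.

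Bax against Bcl2 is the ratio most often quoted for this family. In expected counts it was 1.16, 1.31 and 1.20 in Ctrl, 2.24, 2.38 and 2.61 in Cu-Cys, and 18.2, 24.0 and 18.2 in Cadict. The groups were widely separated, with means 1.97 times and 16.5 times that of Ctrl. In FPKM the same ratio was 15.4 ± 0.659, 29.8 ± 1.22 and 198 ± 92.2, and the Cadict libraries gave 134.9, 303.9 and 155.3. The length that RSEM assigned to Bcl2, which depends on the isoform mix it estimates, moved with that spread. The effective length implied by its counts and FPKM was 4064, 6936 and 4726 bases in the Cadict libraries and 6630 to 6871 in Ctrl. The Bcl2 counts of 61 to 67 behind it were few. Bax to Bcl2l1, the more abundant partner, was 0.194, 0.233 and 0.241 in expected counts in Ctrl, 0.275, 0.326 and 0.318 in Cu-Cys, and 1.41, 1.58 and 1.36 in Cadict. Its Cadict mean was 6.51 times the Ctrl mean.

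**Figure D5:**
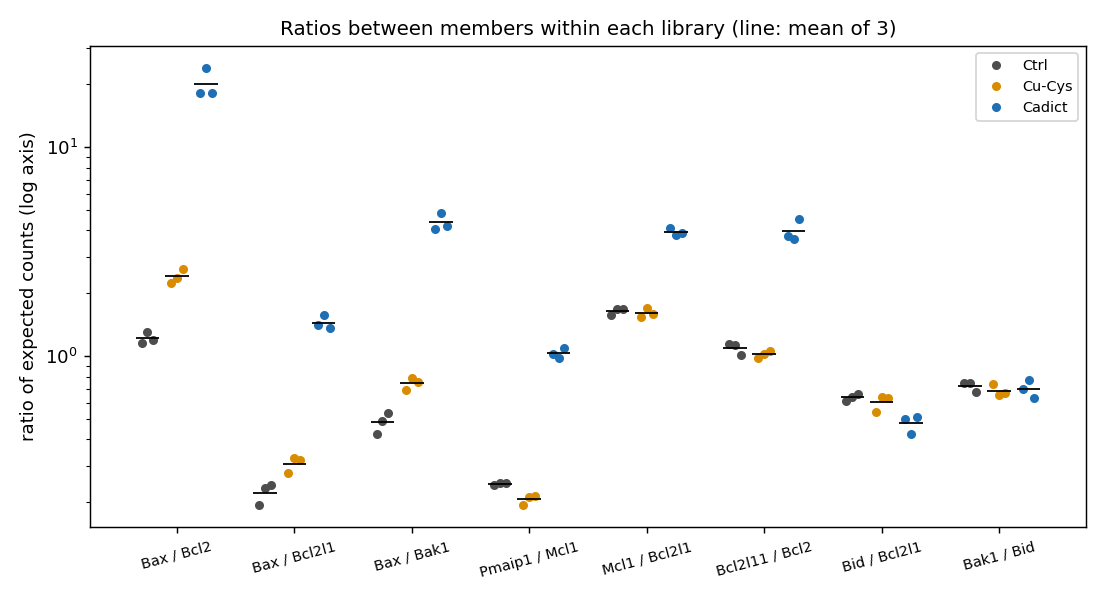
Ratios of expected counts between pairs of members within each library, on a log axis. Points are libraries and lines the mean of 3. Bax over Bcl2 averages 1.22 in Ctrl, 2.41 in Cu-Cys and 20.1 in Cadict. The group means of Bak1 over Bid lie between 0.683 and 0.722, and its libraries between 0.628 and 0.768.

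The genes with the profile nearest to each of the 3 members that changed most were found by the root mean square difference of centred log2 CPM over 9 libraries, among 8550 genes. For Pmaip1 they were Skil (0.048; 88.1, 80.7 and 558.7 CPM in Ctrl, Cu-Cys and Cadict) and Ubap1 (0.064; 56.9, 56.0 and 355.1 CPM). For Bax they were Tmem208 (0.061; 11.7, 17.8 and 50.9 CPM) and Lgals3 (0.079; 262.3, 381.1 and 1067 CPM). For Bcl2 they were Gpsm2 (0.077; 82.3, 71.6 and 22.5 CPM) and Lix1l (0.079; 56.5, 44.3 and 14.4 CPM).

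Other genes of the pathway were taken from fixed lists, and counts are those past an adjusted p of 0.05 for Cadict against Ctrl with TMM scaling. At that limit 40.6% of all genes tested were higher and 47.1% lower, the background for every list. By library totals these shares were not counted, and the median log2 fold change of all genes was -1.08. Counts by library totals therefore lean to lower for the whole transcriptome. Of 7 other BH3-only or BH3-like genes tested, 3 were higher and 4 lower, also by library totals. Bnip3, a hypoxia-inducible mitophagy receptor, fell from 107.9 to 13.7 CPM (log2 fold change -2.97 ± 0.09, edgeR adjusted p 5.2e-14) and rose with Cu-Cys (0.46 ± 0.07, edgeR adjusted p 6.8e-05). Becn1, the autophagy protein with a BH3 motif, rose by 1.23 ± 0.05, and the lysosomal transporter Spns1 by 1.28 ± 0.08. Both rises were smaller by library totals, at 0.28 and 0.33. Of 2 other anti-apoptotic genes tested, 1 was lower by TMM and 2 by library totals. Of the 2 remaining multidomain genes, Bok was 0.20 ± 0.06 higher with TMM and -0.75 by library totals, whereas Bcl2l13 fell on both scalings (-0.43 and -1.38).

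Downstream of the pore, 5 of 12 genes of released mitochondrial proteins and the apoptosome were higher and 5 lower, or 1 higher and 9 lower by library totals. Cycs, the cytochrome c gene, rose from 134.0 to 632.2 CPM (log2 fold change 2.24 ± 0.07, edgeR adjusted p 1.3e-13), and also rose with Cu-Cys (0.63 ± 0.07, edgeR adjusted p 6.7e-06). The caspase gene Casp6 fell with Cadict, by a log2 fold change of -1.70 ± 0.12. Inhibitor of apoptosis genes were lower for 4 and higher for 1 of 6 tested, or lower for all 6 by library totals. Birc3 (-2.45 ± 0.11), Naip2 (-2.38 ± 0.11) and Birc2 (-2.0 ± 0.10) led that list. These 3 were also lower with Cu-Cys, at -0.66, -0.37 and -0.30 on the log2 scale.

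Upstream of Bid, the death receptor list had 2 higher and 6 lower of 8 tested, or 1 and 7 by library totals. Cflar, which encodes the caspase-8 inhibitor c-FLIP, rose from 59.4 to 293.1 CPM (log2 fold change 2.3 ± 0.07, edgeR adjusted p 3.4e-14). The adaptor genes Fadd (-1.53 ± 0.10) and Tradd (-1.42 ± 0.11) fell. Among 10 transcription factor genes known to act on BH3-only promoters, 6 were higher and 3 lower with TMM, or 4 and 5 by library totals. Atf3, a stress-induced factor, went from 14.8 to 1651 CPM (log2 fold change 6.80 ± 0.09, edgeR adjusted p 3.2e-17) and stood at 10.7 CPM in Cu-Cys. Ddit3, which encodes CHOP, rose by 2.59 ± 0.10, and Cebpb by 1.81 ± 0.14.

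Genes of regulators and protein partners of family members made up the remaining lists. For MCL1 turnover and supply, 5 of 9 genes were higher and 3 lower, or 2 and 6 by library totals. Ube2q1 rose by 1.61 ± 0.05, Cdk9 by 1.14 ± 0.06, and the deubiquitinase gene Usp13 fell by a log2 fold change of -1.80 ± 0.14. For BAD and BIM, 10 of 18 kinase and scaffold genes were higher and 5 lower with TMM, or 2 and 15 by library totals. The median log2 fold change of this list by library totals was -0.47, beside -1.08 over all genes. With TMM, Ywhag, a 14-3-3 protein that retains phosphorylated BAD, rose by 2.37 ± 0.05, while Rps6ka1 (-2.59 ± 0.10) and Mapk14 (-1.60 ± 0.06) fell. Partners of BAX, BAK and BID at the outer membrane and in mitochondrial fission and fusion were higher for 8 of 10 and lower for 2, or 4 and 4 by library totals. Vdac2, a channel that binds BAK and BAX, rose from 209.9 to 842.7 CPM (2.01 ± 0.05), Vdac3 rose by 1.56 ± 0.07, and the fusion gene Opa1 fell (-1.39 ± 0.07). With Cu-Cys alone, 2 of those 10 were higher and 1 lower, beside 22.6% and 22.4% of all genes.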

How the data were processed

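Poly(A) RNA of 9 MC38 libraries (3 per group) was sequenced as DNA nanoballs per the labels, although the series text names an Illumina instrument. The submitters' processing notes name HISAT2 2.1.0, Bowtie2 2.3.4.3 and RSEM 1.3.1, with builds GRCm39 and GRCh38.p13 and no roles. The authors deposited, for each gene and library, RSEM expected counts, FPKM, TPM and a signal of counts divided by size factors, together with 12 columns of group averages, which were not used. Table columns abbreviated CC and CCGE were read as Cu-Cys and Cadict, the latter from its components.

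Expected counts were rounded, filtered with filterByExpr and scaled by TMM. All 9 libraries were fitted together by group with edgeR 4.0.16 (quasi-likelihood test, R 4.3.3). Calls required a 2-fold change and an adjusted p of at most 0.001. SE is the absolute log2 fold change over the square root of F. Library totals of 17905771 to 18293056 set the precision, and 3 counts corresponded to 0.164 to 0.168 CPM before TMM. Alternatives used DESeq2 1.42.0 and limma 3.58.1 on log2 of FPKM or TPM plus a pseudocount of 1 or 0.1, where fold changes of low genes are understated. The test was checked on simulated counts in which few genes changed, equally in both directions. That check could not test the scaling of Cadict against Ctrl, where 87.7% of all genes passed the 0.05 limit.

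Named genes were all 10 members, the 3 with the largest absolute log2 fold change in Cadict against Ctrl per list (adjusted p of at most 0.05, mean of at least 10 CPM), and the 2 nearest profiles of 3 members. A result that this rule names is not reported here. Marker genes of cell types are given beside the depth. The members and lists were chosen with earlier results of these data known. Replicate numbers appear in each group. Deviations of same-numbered libraries from their group means correlated at -0.192 to 0.161 over 8551 genes, so the numbers were not taken as pairs. Shared stretches and exon overlaps used GENCODE on GRCm38, and promoters RefSeq on GRCm38.p6.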

Additional observations from a re-analysis of the deposited data

How the results depend on the processing

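The 10 members' called counts in Cadict against Ctrl ranged from 4 to 9 over the alternatives, 0 in every one of Cu-Cys against Ctrl that kept the fold limit, and from 6 to 7 in Cadict against Cu-Cys. Calls over all 11949 genes in Cadict against Ctrl moved too. They were 2746 higher and 2940 lower with DESeq2 size factors, and 828 and 6148 by library totals. In Cadict against Cu-Cys they were 2473 and 2585, and 688 and 5705, in the same order. Without a limit on fold, 6 members passed in Cu-Cys against Ctrl and 10 in Cadict against Cu-Cys, beside 45% and 85.9% of all genes. Leaving out single libraries gave 5 to 6, 0 to 0 and 6 to 6 called members. With the replicate number as a block, 6, 0 and 6 members were called and no call changed, and the numbers did not pair the libraries.

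Directions that turned were those of Mcl1, Bcl2l11, Bak1 and Bid, as log2 fold changes. Mcl1 in Cadict against Ctrl was -0.32 by library totals, -0.32 on FPKM with a pseudocount of 1, -0.32 with 0.1 and -0.66 on TPM. Mcl1 in Cadict against Cu-Cys was -0.42, -0.42, -0.42 and -0.69 in the same order, and Bcl2l11 there was -0.56, -0.46, -0.56 and -0.72. Bcl2l11 in Cadict against Ctrl was 0.043 with DESeq2 size factors, 0.043 by DESeq2's Wald test, and from -0.184 without Cadict replicate 3 to 0.005 without Cadict replicate 2. For Cu-Cys against Ctrl, Bak1 was -0.022 by library totals, -0.025 on FPKM with either pseudocount and -0.096 on TPM, and Bid was -0.018 on TPM. Library totals, FPKM and TPM carry no correction for composition, and with library totals the median of all genes moved by -0.95 in Cadict against Ctrl and -0.88 in Cadict against Cu-Cys. The cause of other differences was not tested. Depth limits Bcl2 and Bbc3 most, with 61 to 67 and 25 to 32 counts in Cadict.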
